A study of Mus musculus with 17 samples.

Results

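The insulin granule exocytosis machinery is described here as 51 mouse genes in 8 groups by role, listed by symbol with earlier results of these data known, among 78239 gene identifiers in a first deposited table and 73212 in a second. The first table holds bulk RNA-seq of isolated pancreatic islets from male mice in 4 groups of 3 libraries: wildtype and *Pax4* R192H at 12 weeks of age on a standard chow diet (SCD), and both genotypes at 16 weeks after 4 weeks of a high-fat diet (HFD). *Pax4* R192H mice (Pax4 HH in the labels) are homozygous for an R200H substitution in the endogenous mouse *Pax4*, the counterpart of human R192H, and were compared with wildtype (Pax4 WT) littermates. The second table holds 3 *Pax4* βiKO libraries (Pax4-BiKO), from mice with both *Pax4* alleles floxed and a Pdx1-CreERT2 transgene, and 2 control libraries from floxed mice without Cre. Both of these groups received tamoxifen at 7 to 9 weeks, went onto HFD at 12 weeks and were 20 weeks old after 8 weeks of it. Cre is driven there by the *Pdx1* promoter, so the presence of Cre and the loss of *Pax4* cannot be told apart, and on the R192H side diet and age change together and cannot be told apart either. Whether a library holds 1 mouse or pooled islets was not given in the sources used here, so p-values measure the spread between these libraries.

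Insulin is stored in dense-core granules that move to the plasma membrane, dock, are primed and fuse when calcium enters the β cell. Fusion is driven by SNARE proteins of the granule (the VAMPs) and of the plasma membrane (syntaxins and SNAP25), timed by calcium-binding C2 proteins, and prepared by Munc13 and CAPS priming factors. Rab3, Rab27 and Rab37 GTPases mark granules and recruit effectors that tether them. Large active zone scaffolds, the cyclic AMP sensor *Rapgef4* and granule membrane proteins such as *Ptprn* tie granules to their release sites and to the cortex. *Pax4* is a paired-homeodomain transcription factor of the β cell lineage.

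*Pax4* itself had 0 counts in all 17 libraries, where 3 counts correspond to between 0.0724 and 0.126 normalized CPM (counts scaled to library size), so neither the substitution nor the deletion could be checked from its RNA. *Esr1*, whose ligand-binding domain is part of CreERT2, had 0.706 and 0.530 CPM in control and 265, 273 and 298 CPM in *Pax4* βiKO islets, which matches the labels. Total counts ran from 24268157 to 42679645 in the first table and from 28618835 to 31887537 in the second. A pair of identifiers with no gene name here held 36.2 to 46.4% of the counts in SCD-fed wildtype, 37.6 to 46.3% in SCD-fed *Pax4* R192H, 43.7 to 49.8% in HFD-fed wildtype and 49.2 to 53.3% in HFD-fed *Pax4* R192H libraries, and 5.40 to 6.49% in the second table. TMM scaling factors were 0.692 to 0.823 in the HFD-fed *Pax4* R192H libraries and at least 0.890 in the other 9. With the pair left out, *Rab3d* was still the single member called between genotypes on HFD, and its log2 fold change was 0.65 (edgeR adjusted p 0.0445). The β cell marker *Ins1* ran from 11236 to 34379 CPM over the 17 libraries. The summed level of 29 acinar (exocrine) marker genes was 17056 to 26231 CPM in HFD-fed wildtype islets and 106726, 39010.5 and 40836 CPM in HFD-fed *Pax4* R192H islets, and it was 112660.0 and 25078 CPM in control and 87493, 17853 and 23280.5 CPM in *Pax4* βiKO islets. In these whole-islet libraries, fewer cells of a type and less RNA per cell cannot be told apart.

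The stretches upstream of 4 members, picked by lowest p in the comparison of genotypes on HFD, are shown first. They are the 250 bases before the start of transcription in RefSeq on GRCm38.p6, written 5′ to 3′ in the sense of the gene, and all 4 genes lie on the minus strand. *Rab3d* and *Ptprn* were the members of lowest p among those higher in *Pax4* R192H islets on HFD, and *Sytl4* and *Syt14* the members of lowest p among those lower. The windows are chr9:21918184-21918433 (*Rab3d*), chr1:75264209-75264458 (*Ptprn*, the gene's window upstream of 2 annotated starts), chrX:133981813-133982062 (*Sytl4*) and chr1:193035776-193036025 (*Syt14*). In the GENCODE M21 annotation *Ptprn* reaches to chr1:75264502, so its whole window lies inside the gene as annotated there. *Rab3d* reaches to chr9:21918192 in it, a few bases into its window. Capitals mark TGACG, the core of a cyclic AMP response element, GGGCGG, the GC box, and CACGTG, an E-box, on either strand.
Rab3d: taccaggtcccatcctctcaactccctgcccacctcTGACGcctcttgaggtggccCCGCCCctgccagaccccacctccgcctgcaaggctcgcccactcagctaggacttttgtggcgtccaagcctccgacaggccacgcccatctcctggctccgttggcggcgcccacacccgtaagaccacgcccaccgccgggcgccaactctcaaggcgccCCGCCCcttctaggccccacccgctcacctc
Ptprn: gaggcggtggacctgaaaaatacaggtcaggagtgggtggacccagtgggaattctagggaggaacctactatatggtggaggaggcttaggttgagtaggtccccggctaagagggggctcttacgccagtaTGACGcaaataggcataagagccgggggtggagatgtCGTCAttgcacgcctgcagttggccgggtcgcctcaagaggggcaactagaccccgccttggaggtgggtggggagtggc
Sytl4: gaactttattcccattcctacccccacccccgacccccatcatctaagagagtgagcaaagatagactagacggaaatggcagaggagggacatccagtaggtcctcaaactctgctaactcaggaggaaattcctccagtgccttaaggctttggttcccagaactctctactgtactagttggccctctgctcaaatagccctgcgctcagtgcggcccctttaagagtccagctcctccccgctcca
Syt14: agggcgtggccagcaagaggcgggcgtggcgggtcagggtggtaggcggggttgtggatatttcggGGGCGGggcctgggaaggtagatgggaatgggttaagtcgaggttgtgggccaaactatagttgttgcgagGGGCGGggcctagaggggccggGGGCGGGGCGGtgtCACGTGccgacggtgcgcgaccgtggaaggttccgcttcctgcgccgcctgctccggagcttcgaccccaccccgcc

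The *Rab3d* window held TGACG 1 time and the GC box 2 times, at a GC content of 69.2%. The *Ptprn* window held TGACG 2 times (59.2% GC), and the *Syt14* window held CACGTG 1 time and the GC box 4 times, the last 2 of them overlapping (69.2% GC). None of these letters was in the *Sytl4* window, whose GC content was 53.2%. Of the 51 members, 39 had a RefSeq window in the reference used, with 44 windows in all. Their median GC content was 61.2%, against 52.4% over all 32851 windows. The GC box (GGGCGG or CCGCCC) was in 28 member windows (63.6%) and in 32.7% of all windows, TGACG (or CGTCA) in 13 (29.5%) and 17.8%, and CACGTG in 8 (18.2%) and 6.02%. The TATA box letters TATAAA were in 4 member windows (9.09%) and in 12.4% of all windows, and TAATTA, a homeodomain core, was in 0 member windows and in 4.84% of all. The 2 letter runs searched for the REST element, CAGCACC and GGACAGC, were in 4 and 1 member windows, which is 9.09% and 2.27%, against 5.73% and 5.28% of all windows. A letter match is a description of the sequence, and binding was not measured.

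The machinery was abundant in islets. Counts of 50 members passed the filter on low counts in the first table, all but *Cplx1*, a complexin with at most 21 counts in any of its libraries. All 51 passed it in the second. Per kilobase of exonic length, the median level of the tested members was 4.49 CPM per kb in the first table and 7.47 in the second, against 1.52 and 2.42 over all tested genes with a known length. The tables were normalized separately, so levels are compared within each. The members spanned 0.0405 to 121 CPM per kb in the first table and 0.143 to 162 in the second.

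The highest member was *Syt13*, a C2 protein of the synaptotagmin family that does not bind calcium, at 98.9 ± 6.84 CPM per kb (SD, n = 3) in SCD-fed wildtype islets and 157 ± 5.26 (SD, n = 2) in control islets. Next came *Sytl4* (granuphilin), the Rab27 effector that docks insulin granules, at 56.8 ± 8.06 CPM per kb in SCD-fed wildtype islets. *Syt4* at 32.4 ± 1.15, the small GTPase *Rab27a* at 31.3 ± 3.60 and *Ptprn2* (phogrin), a transmembrane protein of the granule, at 28.3 ± 2.87 CPM per kb followed in the same islets, and these neighbours in the order lay within each other's spread. *Napa* (α-SNAP), which helps to take SNARE complexes apart, was the highest SNARE regulator at 22.4 ± 3.22 CPM per kb. The highest SNARE was *Vamp8* at 13.3 ± 1.89 and the highest active zone or cyclic AMP member was *Rapgef4* (Epac2) at 12.3 ± 1.62 CPM per kb, again within each other's spread. The highest priming factor was *Cadps* (CAPS1), which primes dense-core granules, at 8.35 ± 0.381 CPM per kb.

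At the other end, *Rims1*, *Cplx1*, *Doc2b* and *Sv2c* were the lowest members of the set by this measure in the first table. *Rims1*, a scaffold of release sites, had between 2 and 17 counts per library in the first table. *Doc2b*, a soluble C2 calcium sensor, had between 0 and 55. *Rims2*, the relative of *Rims1*, was at 37.3, 43.5 and 40.6 CPM in SCD-fed wildtype islets, where *Rims1* was at 0.0674, 0.295 and 0.217. Fold changes of these low members rest on few counts.

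**Figure D1:**
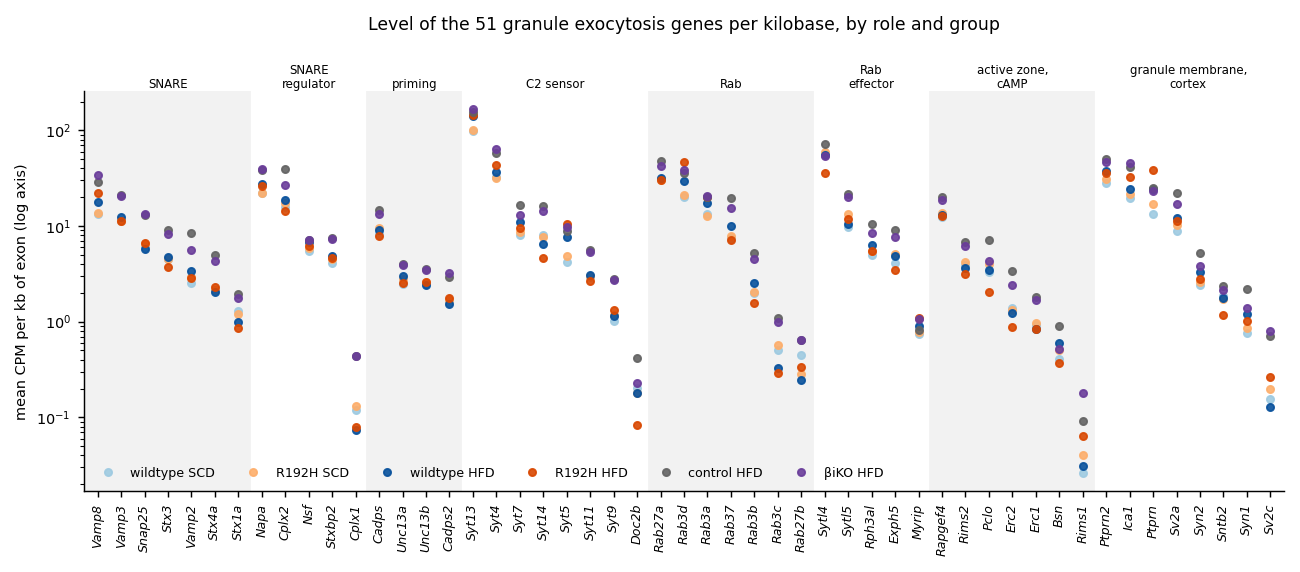
Level of each member in CPM per kb of exonic length (log axis), ordered within the 8 role groups, with a point for the mean of each of the 6 groups. *Syt13* lies highest, at 98.9 CPM per kb in SCD-fed wildtype islets, and *Rims1* is among the lowest.

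The first question was how the R192H substitution bears on the machinery in islets of HFD-fed mice. *Rab3d* was the single member called, higher in *Pax4* R192H islets, where a call needs an edgeR adjusted p under 0.05 and a log2 fold change beyond 0.5. That is 1 of the 50 tested members (2%), and 2.28% of all 19137 tested genes were called, 1.46% higher. At an unadjusted p under 0.05, 4 members were higher (8.00% of members, 8.91% of all tested genes) and 7 lower (14.0% of members, 6.98% of all). Of the 50 members, 18 had a log2 fold change above 0, where 48.6% of all tested genes did, and 32 below, with a median log2 fold change of -0.13 against -0.01 over all tested genes. This tilt in sign and median rested on 1 wildtype library. Without wildtype HFD replicate 1, 28 of 51 members were above 0 and 23 below, the median was 0.03 against 0.04 over all genes, and the single member called was *Ptprn*, where 0.694% of all genes were called. At an unadjusted p under 0.05, 5 of the 51 were then higher and 6 lower, against 7.46% and 4.97% of all genes. Of 11 β cell markers, 5 were above 0 in *Pax4* R192H islets on HFD and 2 were called lower, with a median of -0.17. Of the other lists, stromal (7 of 7 above 0, median 0.25), duct (6 of 7, 0.38), lymphoid (4 of 5, 0.48), endothelial (4 of 6, 0.14), macrophage (4 of 7, 0.04) and PP cell markers (2 of 2, 0.59) had medians above 0, and δ cell (1 of 4, -0.20), glia and neuron (2 of 8, -0.06) and α cell markers (4 of 8, -0.01, 2 called higher) below. Their part in the members' values was not tested.

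*Rab3d* encodes a Rab3 GTPase of secretory granules, known from both endocrine and exocrine cells. *Rab3d* had 109.9, 139 and 123 CPM in HFD-fed wildtype islets and 189.8, 201 and 198 in HFD-fed *Pax4* R192H islets, against 97.3, 68.0 and 86.6 in wildtype and 89.2, 100.03 and 77.3 in *Pax4* R192H islets on SCD. All 3 HFD-fed *Pax4* R192H libraries were above all 9 others of the table. The log2 fold change of *Rab3d* on HFD was 0.66 ± 0.15 (SE), a 1.58-fold difference, with an edgeR adjusted p of 0.0377. The call was lost when wildtype replicate 1 or 3 or any of the 3 *Pax4* R192H libraries on HFD was left out, at log2 fold changes of 0.64 to 0.69 or, without wildtype replicate 1, 0.58 (edgeR adjusted p 0.102 to 0.141). All 29 acinar markers were higher in *Pax4* R192H islets on HFD too, and 9 of them were called. Within that group, replicate 1 had the most summed acinar marker RNA (106726 CPM, against 39010.5 and 40836) and the lowest *Rab3d*. With the acinar mean as a covariate, the log2 fold change of *Rab3d* was 0.69 ± 0.24 and its edgeR adjusted p 0.622, and 0% of all genes were called.

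Among the other Rabs, *Rab37*, a GTPase of insulin granules, differed in the opposite direction. On HFD, the *Rab37* values were 58.3, 44.6 and 57.7 CPM in wildtype and 38.5, 36.4 and 39.0 in *Pax4* R192H islets, and on SCD they were 36.8, 38.1 and 45.3 and 40.8, 45.2 and 39.8. On HFD the 3 *Pax4* R192H libraries lay below the 3 wildtype ones, where the lowest of them sat just under the SCD range and the others within it. On HFD its log2 fold change was -0.50 ± 0.13 with an edgeR adjusted p of 0.0644, short of a call. Groups overlapped for *Rab3b*, whose log2 fold change was -0.68 ± 0.29 (edgeR adjusted p 0.26). The more abundant *Rab27a* had -0.10 ± 0.15 and *Rab3a* 0.22 ± 0.19 on the log2 scale, and neither had an unadjusted p under 0.05. Without wildtype HFD replicate 1 *Rab27a* was at -0.19 ± 0.16 and *Rab3a* at 0.11 ± 0.21.

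*Sytl4* was the member of lowest p among those lower in *Pax4* R192H islets. *Sytl4* had 268, 273 and 302 CPM in HFD-fed wildtype islets and 148, 181 and 217 in HFD-fed *Pax4* R192H islets, against 329, 247 and 297 in wildtype and 322, 305 and 289 in *Pax4* R192H islets on SCD. The HFD-fed *Pax4* R192H libraries were the lowest 3 of the table, and the other 3 groups overlapped each other. Its log2 fold change on HFD was -0.63 ± 0.15, which is 0.647 times the wildtype level, with an edgeR adjusted p of 0.0503. DESeq2 called *Sytl4*, and so did edgeR without wildtype SCD replicate 2, *Pax4* R192H SCD replicate 3 and wildtype HFD replicate 1. The other Rab effectors had log2 fold changes of -0.19 ± 0.18 (*Rph3al*, Noc2), 0.18 ± 0.27 (*Sytl5*), -0.48 ± 0.27 (*Exph5*) and 0.25 ± 0.17 (*Myrip*). Without wildtype HFD replicate 1 they had -0.12 ± 0.20, 0.45 ± 0.28, -0.14 ± 0.24 and 0.21 ± 0.19, in that order. Of these 4, the groups did not overlap for *Myrip* alone, the link between Rab27 and myosin, at 4.75, 5.22 and 5.16 CPM in wildtype and 6.19, 5.33 and 6.45 CPM in *Pax4* R192H islets.

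The C2 proteins did not move one way, with 4 of 8 above 0 and 4 below on HFD, and none was called (14 members of all roles had groups without overlap, 6 higher and 8 lower, against 13% and 9.89% of all tested genes). *Syt14*, a synaptotagmin that does not bind calcium, lay lower. *Syt14* had 89.9, 71.3 and 72.2 CPM in HFD-fed wildtype islets and 52.6, 53.0 and 59.7 in HFD-fed *Pax4* R192H islets, against 90.6, 103 and 93.6 in wildtype and 87.7, 85.5 and 101 in *Pax4* R192H islets on SCD. Its 3 HFD-fed *Pax4* R192H values were below all others of the table, and the HFD-fed wildtype values reached into the SCD range. For *Syt14* on HFD the log2 fold change was -0.50 ± 0.13 with an edgeR adjusted p of 0.0579. *Syt5*, one of the calcium-binding synaptotagmins, lay higher. On HFD, the *Syt5* values were 16.3, 18.4 and 19.6 CPM in wildtype and 23.1, 27.8 and 23.6 in *Pax4* R192H islets, and on SCD they were 10.01, 8.72 and 11.0 and 11.2, 10.2 and 13.1. The HFD-fed *Pax4* R192H libraries held the 3 highest *Syt5* values, and the HFD-fed wildtype libraries the next 3. Between genotypes on HFD the log2 fold change was 0.46 ± 0.14 with an edgeR adjusted p of 0.118. *Syt7*, the calcium sensor best known in insulin release, had -0.21 ± 0.16 on the log2 scale, and *Syt13*, the most abundant, 0.04 ± 0.14. Without wildtype HFD replicate 1 *Syt7* was at -0.01 ± 0.14 and *Syt13* at 0.05 ± 0.16.

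Granule membrane and cortex members were split as well, with 3 above 0 and 5 below (5 and 3 without wildtype HFD replicate 1, where *Syn1* and *Ptprn2* turned). *Ptprn* (IA-2) is a transmembrane protein of insulin granules and an autoantigen of type 1 diabetes. *Ptprn* had 134, 83.0 and 95.5 CPM in HFD-fed wildtype islets and 185, 151 and 159 in HFD-fed *Pax4* R192H islets, against 55.3, 50.9 and 65.9 in wildtype and 67.1, 71.4 and 78.6 in *Pax4* R192H islets on SCD. Its HFD-fed *Pax4* R192H libraries were the highest of the table, and wildtype HFD replicate 1 stood above the other wildtype libraries. The log2 fold change of *Ptprn* on HFD was 0.66 ± 0.17, with an edgeR adjusted p of 0.0604 that became 0.022 without that library. DESeq2 called it higher with all libraries (adjusted p 0.00661). *Ica1* (ICA69), another islet autoantigen that binds membranes, was the third of this direction. On HFD, the *Ica1* values were 69.5, 83.2 and 81.8 CPM in wildtype and 104, 103 and 113 in *Pax4* R192H islets, and on SCD they were 75.4, 54.6 and 62.9 and 70.4, 69.3 and 69.2. On HFD every *Pax4* R192H value of *Ica1* exceeded every wildtype value, and on SCD the groups overlapped. Its log2 fold change on HFD was 0.45 ± 0.13 with an edgeR adjusted p of 0.0891.

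*Sntb2* (β2-syntrophin), which links *Ptprn* to the actin cortex, had lower values in *Pax4* R192H islets on HFD. On HFD, the *Sntb2* values were 20.3, 15.9 and 18.8 CPM in wildtype and 11.9, 11.4 and 13.0 in *Pax4* R192H islets, and on SCD they were 14.4, 22.7 and 20.1 and 15.1, 20.8 and 17.8. The 3 HFD-fed *Pax4* R192H libraries were the lowest of the table. This gave a log2 fold change of -0.60 ± 0.18 with an edgeR adjusted p of 0.0992, and DESeq2 called it at an adjusted p of 0.0404. *Sv2a*, a membrane glycoprotein of secretory vesicles, is given for comparison. On HFD, the *Sv2a* values were 59.4, 49.5 and 61.7 CPM in wildtype and 46.6, 49.2 and 61.2 in *Pax4* R192H islets, and on SCD they were 44.1, 33.5 and 44.5 and 44.8, 46.7 and 50.2. The genotypes overlapped on HFD, and the difference was -0.12 ± 0.15 on the log2 scale (edgeR adjusted p 0.756).

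No SNARE, SNARE regulator or priming factor was called between genotypes on HFD. Of 7 SNAREs, 3 were above 0 and 4 below, and the log2 fold changes ran from -0.34 (*Stx3*) to 0.31 (*Vamp8*). *Snap25*, the plasma membrane SNARE cut by botulinum toxins, had 36.2, 40.5 and 40.5 CPM in wildtype and 44.1, 46.6 and 44.6 CPM in *Pax4* R192H islets, which is 0.21 ± 0.12 on the log2 scale with groups that did not overlap (edgeR adjusted p 0.416). *Stx1a*, its syntaxin partner, was at 2.80, 2.39 and 2.79 and 1.75, 2.31 and 2.81 CPM. The 4 tested SNARE regulators were all below 0, between -0.38 (*Cplx2*) and -0.06, and none was called. The 4 priming factors were 2 above and 2 below 0. Without wildtype HFD replicate 1 the SNAREs were 4 above and 3 below 0, the priming factors 3 and 1, and the SNARE regulators, then 5 tested, 2 and 3. The SNAREs then ran from -0.40 (*Stx3*) to 0.40 (*Vamp2*), with *Vamp8* at 0.17.

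*Vamp2*, the granule SNARE, and *Cplx2*, a complexin that binds assembled SNAREs, show how far 1 library can reach. *Vamp2* had 22.3, 7.06 and 9.30 CPM in HFD-fed wildtype islets and 12.8, 8.73 and 10.9 in HFD-fed *Pax4* R192H islets, against 7.95, 13.0 and 8.23 in wildtype and 9.69, 8.63 and 15.6 in *Pax4* R192H islets on SCD. Wildtype HFD replicate 1 held the highest *Vamp2* value of the table, and the other values overlapped. On HFD, the *Cplx2* values were 125, 65.3 and 85.0 CPM in wildtype and 81.5, 66.5 and 63.6 in *Pax4* R192H islets, and on SCD they were 65.4, 81.9 and 85.9 and 76.1, 82.3 and 98.0. Wildtype HFD replicate 1 was highest for *Cplx2* too. Log2 fold changes on HFD were -0.25 ± 0.37 for *Vamp2* and -0.38 ± 0.21 for *Cplx2*, with edgeR adjusted p-values of 0.81 and 0.398. Without that library *Vamp2* turned to 0.40 ± 0.29 and *Cplx2* was at -0.09 ± 0.17.

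Of the 7 active zone and cyclic AMP members, 6 were below 0 on HFD, and 3 without wildtype HFD replicate 1. *Bsn* then turned to 0.26 ± 0.52, *Erc1* to 0.22 ± 0.17 and *Pclo* to 0.03 ± 0.51, and *Erc2* was at -0.36 ± 0.20. *Erc2* (CAST), a scaffold that binds RIM and piccolo, was the clearest. *Erc2* had 14.3, 12.0 and 9.90 CPM in HFD-fed wildtype islets and 8.52, 8.01 and 8.98 in HFD-fed *Pax4* R192H islets, against 12.3, 17.2 and 11.5 in wildtype and 10.8, 13.3 and 14.5 in *Pax4* R192H islets on SCD. All 3 HFD-fed *Pax4* R192H values were below the rest of the table. The log2 fold change of *Erc2* on HFD was -0.50 ± 0.19 with an edgeR adjusted p of 0.195. *Pclo* (piccolo) had -0.76 ± 0.55 and *Bsn* (bassoon) -0.69 ± 0.58 on the log2 scale, with wildtype HFD replicate 1 at 144 and 18.6 CPM, far above the other libraries of its group. *Rapgef4* had -0.05 ± 0.13. *Rims1* was the exception at 1.03 ± 0.68, on at most 17 counts per library.

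**Figure D2:**
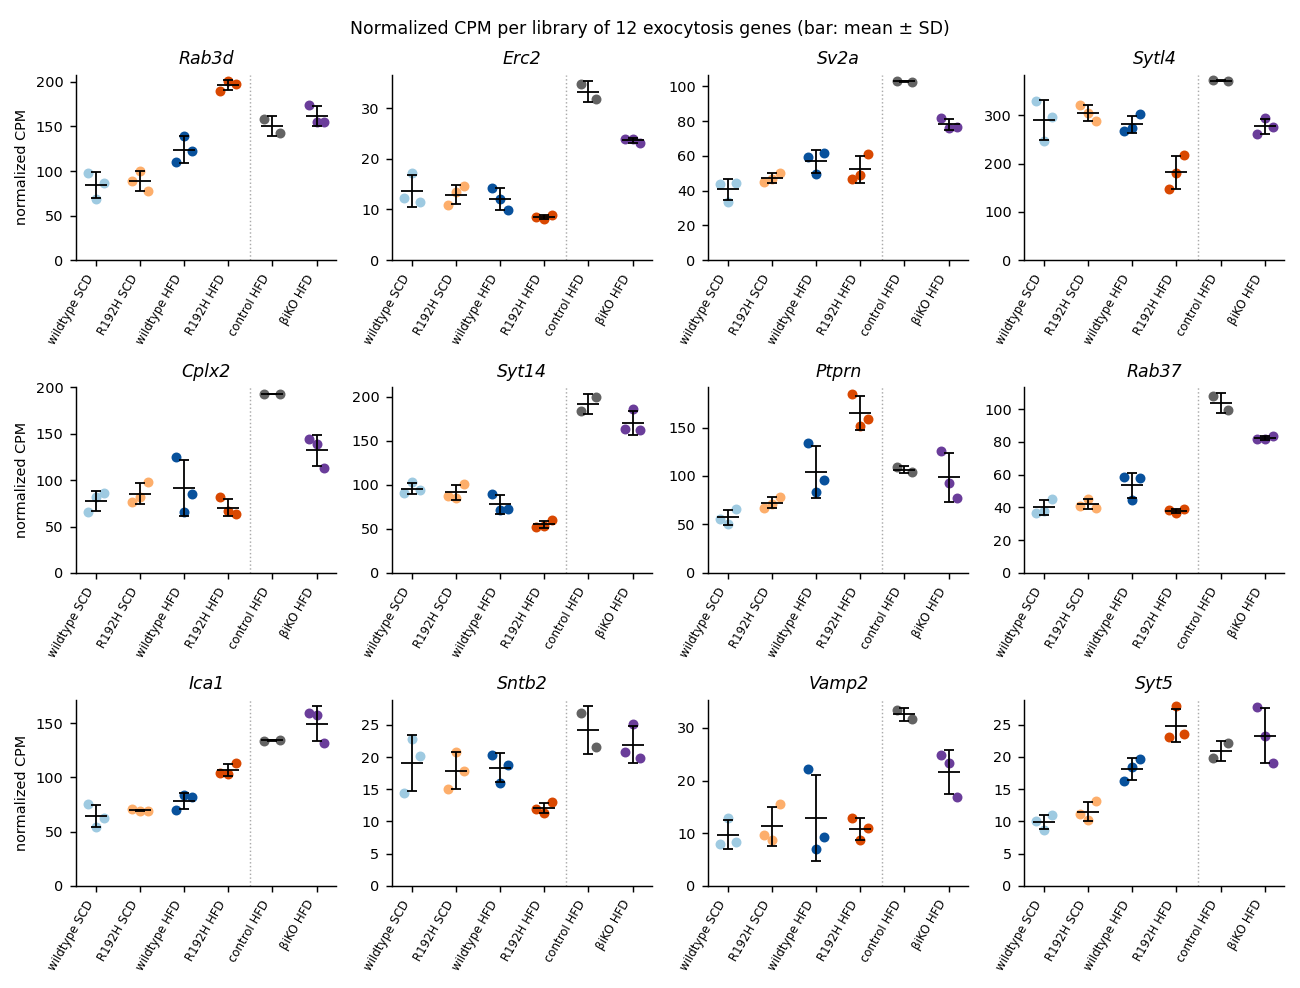
Normalized CPM in each of the 17 libraries for the 12 members described in full, 1 panel a gene with its own linear axis, points for libraries and bars for the group mean ± SD. The 3 HFD-fed *Pax4* R192H libraries stand above the other groups of the first table for *Rab3d* (190 to 201 CPM) and below them for *Sytl4* (148 to 217 CPM).

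On SCD no member was called, and neither was any of the 19137 tested genes (0%). edgeR gave 0 members higher and 1 lower at an unadjusted p under 0.05, against 1.1% and 2.19% of all tested genes, and DESeq2 called 0 members. Groups did not overlap for 4 members, 3 higher (6% of members) and 1 lower (2%), against 3.62% and 4.22% of all. Small differences above 0 prevailed, in 39 of 50 members where 49.3% of all tested genes were above 0, with a median log2 fold change of 0.09 against 0.00 over all tested genes. All 5 Rab effectors, all 4 priming factors, 7 of 8 granule membrane and cortex members and 6 of 7 active zone and cyclic AMP members were among the 39. Without wildtype replicate 1 the members' median was 0.03. Markers of other cells differed in both directions on SCD, and 0 of any list were called. Above 0 were 0 of 5 lymphoid (median -2.46), 0 of 7 macrophage (-0.42), 0 of 7 stromal (-0.60), 7 of 29 acinar (-0.21), 3 of 8 glia and neuron (-0.16), 3 of 11 β cell (-0.08) and 3 of 6 endothelial markers (-0.01). Medians were above 0 for PP cell (2 of 2, 0.41), α cell (5 of 8, 0.22), δ cell (3 of 4, 0.20) and duct markers (5 of 7, 0.03). Summed, the lymphoid markers had 14.1 to 32.1 CPM in wildtype and 5.40 to 7.96 CPM in *Pax4* R192H islets. Their part in the members' values was not tested.

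The lowest p among members above 0 on SCD belonged to *Ptprn*, *Sytl5* and *Cadps*, with log2 fold changes of 0.34 ± 0.17, 0.44 ± 0.27 and 0.20 ± 0.12. Below 0 they belonged to *Rab27b* at -0.65 ± 0.29, *Sntb2* at -0.09 ± 0.18 and *Syt14* at -0.07 ± 0.13. All 6 had an edgeR adjusted p of 1. *Sytl5* was at 0.08 without *Pax4* R192H replicate 3, and without wildtype replicate 2 *Rab27b* was at -0.23 and *Syt14* at -0.01. The values of *Rab27b*, a GTPase shared by many secretory cells, were 3.54, 7.13 and 3.62 CPM in wildtype and 2.49, 3.16 and 3.51 CPM in *Pax4* R192H islets on SCD, and wildtype SCD replicate 2 was the high one. *Sntb2* turned to the other sign when wildtype SCD replicate 2 or *Pax4* R192H SCD replicate 1 was left out (0.05 and 0.03).

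Whether the genotype difference itself differed between diets was tested by the interaction. No member passed it, against 0.131% of all tested genes. edgeR gave 2 members with a positive and 5 with a negative interaction at an unadjusted p under 0.05 (6.84% and 4.38% of all tested genes), and DESeq2 called 0. The interaction was -0.70 ± 0.22 on the log2 scale for *Sytl4* (edgeR adjusted p 0.225), -0.56 ± 0.18 for *Rab37* (0.253) and -0.43 ± 0.18 for *Syt14* (0.38). On the positive side it was 0.58 ± 0.21 for *Rab3d* (edgeR adjusted p 0.309), 1.08 ± 0.42 for *Rab27b* (0.341) and 0.33 ± 0.18 for *Ica1* (0.533). *Rab27b* was at 0.66 there without wildtype SCD replicate 2. For these 6 a larger genotype difference on HFD than on SCD was therefore not established. Over the 50 members 16 interactions were above 0 (49.2% of all tested genes) and 34 below, with a median of -0.22. Without wildtype SCD replicate 2, *Pax4* R192H SCD replicate 3 and wildtype HFD replicate 1 the median was -0.09.

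HFD against SCD asked what 4 weeks of the diet, with 4 weeks of age, did in each genotype. In wildtype islets 1 member, *Syt5*, rose, against 0.371% of all tested genes called and 0.204% called higher. Its log2 fold change was 0.87 ± 0.15 with an edgeR adjusted p of 0.0282, and the 3 HFD values were above all 3 SCD values. Stromal markers (0 of 7 above 0, median -1.74), lymphoid markers (0 of 5, -1.98, 1 called lower) and macrophage markers (1 of 7, -0.69, 1 called lower) had medians below 0, and so had duct (1 of 7, -0.66), PP cell (1 of 2, -0.19), glia and neuron (2 of 8, -0.23), α cell (4 of 8, -0.03), δ cell (2 of 4, -0.03) and endothelial markers (3 of 6, -0.03). Medians were above 0 for β cell (8 of 11, 0.30) and acinar markers (21 of 29, 0.13). Their part in the members' values was not tested. Summed, the lymphoid markers had 14.1 to 32.1 CPM on SCD and 4.19 to 5.94 CPM on HFD. The *Syt5* call was lost without SCD replicate 2, HFD replicate 2 or HFD replicate 3 (edgeR adjusted p 0.0857, 0.0826 and 0.166). At an unadjusted p under 0.05, 12 members were higher on HFD (24.0% of members, 6.86% of all tested genes) and 2 lower (4% and 8.37%). Groups did not overlap for 10 members higher and 3 lower on HFD, against 8.47% and 9.46% of all tested genes. The 12 hold 5 of the 8 granule membrane and cortex members, namely *Ptprn*, *Ptprn2*, *Sv2a*, *Syn2* and *Ica1*. They also hold *Syt5*, *Syt7*, *Syt13*, *Rab3d*, *Rab37*, *Vamp8* and *Nsf*, the ATPase that recycles SNAREs. *Ptprn* was higher by 0.86 ± 0.17 on the log2 scale (edgeR adjusted p 0.0521) and *Rab3d* 0.56 ± 0.15 (0.111). Below 0, *Rab27b* had -0.86 ± 0.29, *Syt14* -0.30 ± 0.13 and *Stx1a* -0.38 ± 0.24, with edgeR adjusted p-values of 0.195, 0.28 and 0.471. *Rab27b* was at -0.44 without SCD replicate 2, and *Stx1a* at -0.22 without SCD replicate 3. Fold changes were above 0 for 35 members (51.1% of all genes), and their median of 0.21 (0.01 over all genes) was 0.01 without wildtype HFD replicate 1, when 26 of 51 members were above 0 and 10 higher at an unadjusted p under 0.05.

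In *Pax4* R192H islets 11 of 50 members were called (22.0%), 7 higher and 4 lower on HFD, against 15.7% of all tested genes (9.75% higher and 5.91% lower). At an unadjusted p under 0.05, 9 were higher and 8 lower, against 17% and 15.4% of all tested genes, and groups did not overlap for 13 higher and 9 lower, against 21.3% and 20.6%. Of the 50, 27 were above 0, where 46.4% of all genes were. The shares at an unadjusted p lay near the background. The 7 that rose were *Ptprn*, *Rab3d*, *Syt5*, *Rab3a*, *Vamp8*, *Ica1* and *Syt13*. *Ptprn* rose by 1.19 ± 0.17 on the log2 scale (edgeR adjusted p 0.000769), *Rab3d* by 1.14 ± 0.15 (0.000465) and *Syt5* by 1.11 ± 0.15 (0.000442). In folds these were 2.28, 2.21 and 2.16, and each gene's HFD libraries were above all its SCD libraries. *Rab3a*, the Rab3 form of neurons and endocrine cells, rose by 0.68 ± 0.20 and *Vamp8* by 0.67 ± 0.15, with edgeR adjusted p-values of 0.03 and 0.00847. *Ica1* rose by 0.61 ± 0.13 and *Syt13* by 0.51 ± 0.14 (edgeR adjusted p 0.00636 and 0.0236).

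The 4 members that fell on HFD in *Pax4* R192H islets were *Sytl4*, *Syt14*, *Erc2* and *Sntb2*. Their log2 fold changes were -0.75 ± 0.15, -0.73 ± 0.13, -0.60 ± 0.19 and -0.57 ± 0.18, with edgeR adjusted p-values of 0.00568, 0.00218, 0.0437 and 0.0437. The same 4 had -0.05 ± 0.15, -0.30 ± 0.13, -0.18 ± 0.19 and -0.06 ± 0.18 in wildtype islets, in that order. Calls of *Rab3a*, *Syt13*, *Erc2* and *Sntb2* depended on single libraries. Each was lost without *Pax4* R192H SCD replicate 3, HFD replicate 1 or HFD replicate 2. *Rab3a* and *Erc2* were also lost without HFD replicate 3, *Erc2* without SCD replicate 2 and *Syt13* without SCD replicate 1, and *Sntb2* when any 1 of the 6 was left out. This comparison shares its HFD libraries with the genotype comparison on HFD. Of the acinar markers, all 29 were higher on HFD in *Pax4* R192H islets and 26 were called. In wildtype islets 21 of 29 were higher and 0 were called. Acinar mRNA in *Pax4* R192H islets thus moved with diet beside the members, and with the acinar mean as a covariate 0 members were called in *Pax4* R192H islets (0.298% of all genes). Under the covariate the SEs were larger and all 11 kept their direction, with *Rab3d* at 1.18 ± 0.28 and *Syt5* at 1.08 ± 0.27 on the log2 scale. *Ptprn* was at 0.87 ± 0.30 and *Sytl4* at -0.36 ± 0.25.

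**Figure D3:**
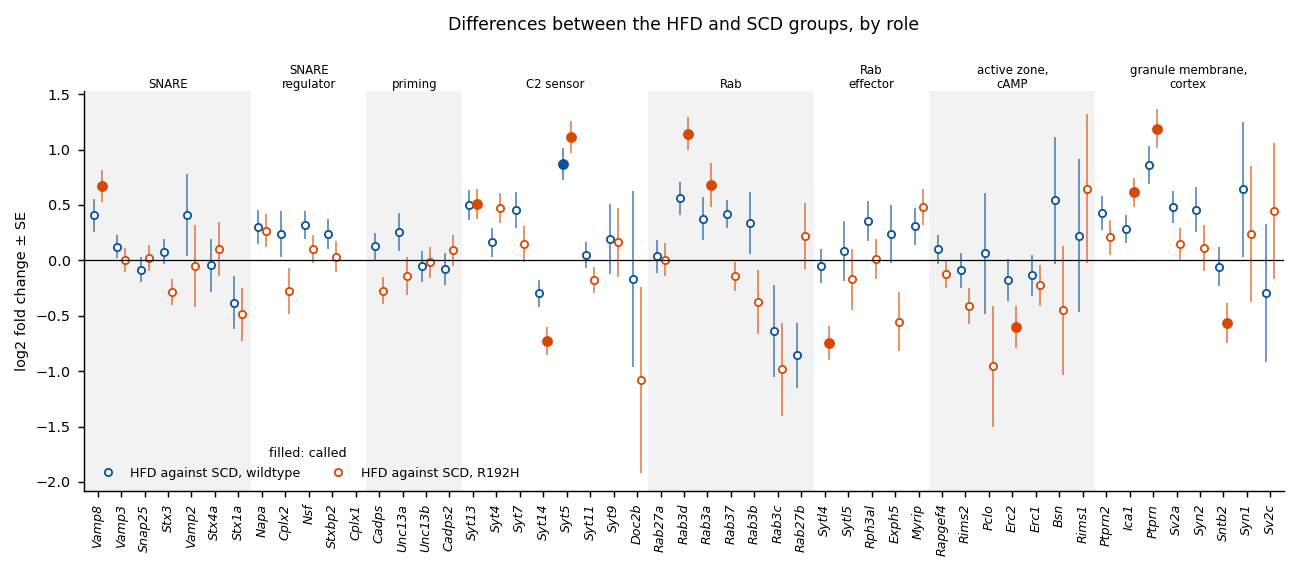
Log2 fold change of HFD against SCD for each tested member, in role groups, for wildtype and for *Pax4* R192H islets, with bars for ± 1 SE and filled points for calls. *Ptprn*, *Rab3d* and *Syt5* lie highest in *Pax4* R192H islets (1.11 to 1.19) and *Syt5* is the single call in wildtype islets.

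*Pax4* βiKO against control asked what loss of *Pax4* in adult β cells did to the machinery after 8 weeks of HFD. By edgeR no member was called, where 0.0893% of all 20167 tested genes were. The members nevertheless lay mostly below 0, 37 of 51, where 51.5% of all tested genes lay above 0, with a median log2 fold change of -0.11 against 0.01 over all tested genes. At an unadjusted p under 0.05, 12 members were lower (23.5% of members, 6.62% of all tested genes) and 1 higher (1.96% and 6.23%). Groups did not overlap for 23 members, 21 lower in *Pax4* βiKO islets (41.2% of members, 16.7% of all) and 2 higher (3.92% and 15.9%). Of 11 β cell markers, 3 were above 0 (median -0.37) and of 8 α cell markers 5 (median 0.21), with 0 called in these or any other list. Lymphoid (5 of 5, median 1.58), PP cell (2 of 2, 0.33), stromal (6 of 7, 0.29), macrophage (6 of 7, 0.21) and endothelial markers (6 of 6, 0.18) also had medians above 0, while δ cell (2 of 4, -0.03), glia and neuron (4 of 8, -0.02) and duct markers (3 of 7, -0.02) were close to 0. Their part in the members' values was not tested. The summed β cell markers were 121959 and 132897 CPM in control and 132707 to 138204 CPM in *Pax4* βiKO islets. On the first principal component of this table *Pax4* βiKO replicate 3 scored 51.7 and replicate 1 -44.5, with the other 3 libraries between -7.78 and 7.78. Without replicate 3, 13 members were lower at an unadjusted p under 0.05 (6.31% of all genes) and 24 lower without overlap (22.9% of all genes), and without replicate 1 the counts were 14 (7.03%) and 26 (22.7%). DESeq2, which called 1.22% of all genes, called 3 members, *Cplx2*, *Vamp2* and *Bsn*, all lower, with adjusted p-values of 0.00133, 0.0314 and 0.0444.

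Active zone scaffolds held 3 of the 12. *Erc2* had 34.7 and 31.8 CPM in control islets and 24.0, 23.9 and 23.1 in *Pax4* βiKO islets. The 3 *Pax4* βiKO values lay close together and below both controls. The log2 fold change of *Erc2* was -0.49 ± 0.09 with an edgeR adjusted p of 0.153. *Bsn* had -0.78 ± 0.23 (0.274) and *Pclo* -0.70 ± 0.23 (0.298), the numbers in parentheses being edgeR adjusted p-values. Control islets held 166 and 151 CPM of *Pclo* and *Pax4* βiKO islets 119, 111 and 63.3. *Pax4* βiKO replicate 3 was well below the other 2 for *Pclo*, and for *Bsn* as well at 5.76 CPM. *Rims2* was at -0.16 ± 0.09 and *Rapgef4* at -0.09 ± 0.08, and *Rims1* at 0.95 ± 0.49 on 11 to 52 counts per library (0.49 without control replicate 1 and 1.67 without control replicate 2).

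On the granule membrane, *Sv2a* was the clearest. *Sv2a* had 103 and 103 CPM in control islets and 81.6, 76.1 and 76.7 in *Pax4* βiKO islets. Both controls were above all 3 *Pax4* βiKO libraries, and neither group spread far. For *Sv2a* the log2 fold change was -0.40 ± 0.08 with an edgeR adjusted p of 0.161. The synapsins *Syn1* and *Syn2*, which tether vesicles to actin in neurons, had -0.66 ± 0.30 and -0.45 ± 0.13, without overlap between groups. *Ptprn* had -0.11 ± 0.18, with 109 and 104 CPM in control and 126, 92.6 and 77.0 CPM in *Pax4* βiKO islets. Control islets held 134 and 134 CPM of *Ica1* and *Pax4* βiKO islets 159.6, 158 and 131. *Sntb2* had 26.9 and 21.5 CPM in control islets and 20.8, 25.2 and 19.8 in *Pax4* βiKO islets. Groups overlapped for *Ptprn*, *Ica1* and *Sntb2*, whose log2 fold changes were -0.11 ± 0.18, 0.16 ± 0.10 and -0.14 ± 0.14.

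Among SNAREs and their regulators, *Vamp2* and *Cplx2* stood out. *Vamp2* had 33.5 and 31.7 CPM in control islets and 24.8, 23.3 and 16.8 in *Pax4* βiKO islets. Control islets held 193 and 193 CPM of *Cplx2* and *Pax4* βiKO islets 145, 139 and 114. For both genes the controls were above every *Pax4* βiKO library, and *Pax4* βiKO replicate 3 was lowest. Log2 fold changes were -0.59 ± 0.16 and -0.54 ± 0.11, with edgeR adjusted p-values of 0.257 and 0.173. *Vamp8*, a VAMP of granules in many secretory cells, was the single member above 0 at an unadjusted p under 0.05, at 66.4 and 66.4 CPM in control and 81.0, 79.4 and 79.0 CPM in *Pax4* βiKO islets, or 0.26 ± 0.07 on the log2 scale (edgeR adjusted p 0.26). *Snap25* had 0.05 ± 0.09 and *Stx1a* -0.14 ± 0.32. The 4 priming factors lay between -0.13 (*Cadps*) and 0.12 (*Cadps2*).

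Of the Rabs and their effectors, *Rab37*, *Sytl4* and *Rph3al* were among the 12. *Rab37* had 108 and 99.3 CPM in control islets and 81.8, 81.9 and 83.7 in *Pax4* βiKO islets. The *Pax4* βiKO values were close together and lay below both controls. Control islets held 373 and 371 CPM of *Sytl4* and *Pax4* βiKO islets 262, 294 and 276. For *Sytl4* too the controls were the 2 highest. Log2 fold changes were -0.33 ± 0.08 for *Rab37*, -0.43 ± 0.09 for *Sytl4* and -0.33 ± 0.11 for *Rph3al*, with edgeR adjusted p-values of 0.213, 0.173 and 0.286. *Myrip* was above 0 at 0.37 ± 0.20 without overlap between groups, and at 0.15 without control replicate 2 or 0.62 without control replicate 1. *Rab3d* had 159 and 142 CPM in control islets and 174, 155 and 156 in *Pax4* βiKO islets. *Rab3d* overlapped between groups, with a log2 fold change of 0.10 ± 0.09. The libraries highest in acinar markers, control replicate 1 and *Pax4* βiKO replicate 1, had the highest *Rab3d* of their group. In the first table this held for HFD-fed wildtype islets alone (replicate 2, 26231 CPM of markers and 139 of *Rab3d*). The library highest in acinar markers had the lowest *Rab3d* in HFD-fed *Pax4* R192H islets (replicate 1, 106726 and 189.8 CPM). So it had in SCD-fed *Pax4* R192H islets (replicate 3, 20512 and 77.3 CPM), and SCD-fed wildtype replicate 3 lay between. The part of acinar RNA was not tested.

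The C2 members contributed *Syt7* at -0.33 ± 0.11 and *Doc2b* at -0.90 ± 0.30, the latter on 26 to 55 counts per library. *Syt14* had 184 and 199.8 CPM in control islets and 163, 186 and 162 in *Pax4* βiKO islets. Control islets held 19.9 and 22.1 CPM of *Syt5* and *Pax4* βiKO islets 27.7, 23.2 and 19.0. Groups overlapped for *Syt14* and *Syt5*, whose log2 fold changes were -0.17 ± 0.09 and 0.15 ± 0.16. Of the 29 acinar markers, 2 were above 0 here and 0 were called, with a median log2 fold change of -0.68. The summed lymphoid markers were 72.9 CPM in *Pax4* βiKO replicate 3 and 13.5 to 20.0 CPM in the other 4 libraries. Their part in the lower values of that library was not tested.

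The comparisons of *Pax4* R192H with wildtype on HFD and of *Pax4* βiKO with control share no libraries. Members lower at an unadjusted p under 0.05 numbered 7 in the first and 12 in the second, and 3 were in both, *Rab37*, *Sytl4* and *Erc2*, which is 42.9% of the first list and 25.0% of the second. Over the 18590 genes tested in both tables, 404 were in both lists, which is 30.9% of the first and 31.2% of the second, and nothing is read from the members' overlap. *Sytl4* had -0.63 ± 0.15 and -0.43 ± 0.09, *Rab37* -0.50 ± 0.13 and -0.33 ± 0.08, and *Erc2* -0.50 ± 0.19 and -0.49 ± 0.09 on the log2 scale, in that order. None of the 3 was called by edgeR in either comparison. The members higher in *Pax4* R192H islets, *Rab3d*, *Ptprn*, *Ica1* and *Syt5*, had 0.10 ± 0.09, -0.11 ± 0.18, 0.16 ± 0.10 and 0.15 ± 0.16 in *Pax4* βiKO against control.

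**Figure D4:**
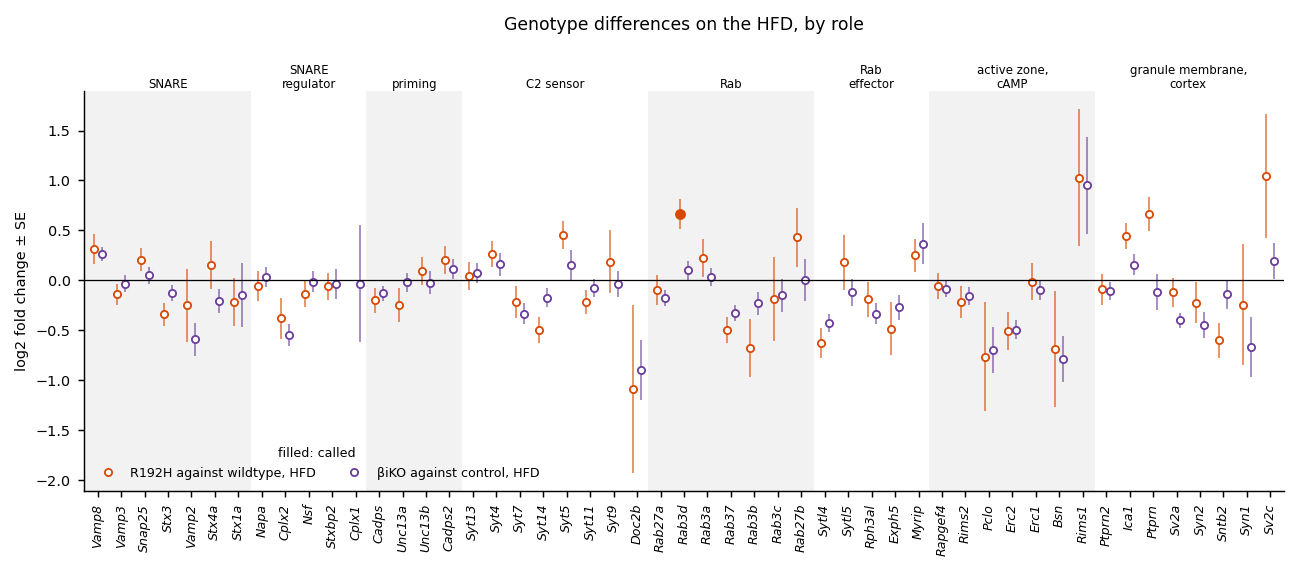
Log2 fold change of each tested member in role groups, for *Pax4* R192H against wildtype on HFD and for *Pax4* βiKO against control, with bars for ± 1 SE and filled points for calls. *Rab3d* (0.66) is the single call, and 37 of 51 members lie below 0 in *Pax4* βiKO islets.

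Beyond the 51 members, 69 other genes of exocytosis were listed, of which 68 were matched. In *Pax4* R192H against wildtype on HFD 60 of them were tested, 20 above and 40 below 0, with a median log2 fold change of -0.09 (48.6% of all genes were above 0, with a median of -0.01), and 2 were called, both lower (3.33%, against 2.28% of all genes). Without wildtype HFD replicate 1, 21 were above and 39 below 0 with a median of -0.10 (53.8% and 0.04 over all genes), and 0 were called (0.694%). *Rims3*, a short RIM family member, had 79.9, 42.3 and 54.2 CPM in wildtype and 25.4, 24.6 and 38.6 CPM in *Pax4* R192H islets on HFD, and it fell by 0.99 ± 0.22 on the log2 scale (edgeR adjusted p 0.0344). *Stxbp5l* (tomosyn-2), an inhibitor of exocytosis, had 9.44, 8.02 and 5.81 CPM and 4.65, 4.20 and 4.29 CPM, and it fell by 0.82 ± 0.19 (edgeR adjusted p 0.0399). Neither gene overlapped between genotypes on HFD, and wildtype replicate 1 was the highest library for both. In *Pax4* βiKO islets *Rims3* was the single one of 62 called (0.0893% of all genes), at 101 and 96.8 CPM in control and 51.7, 60.8 and 49.8 CPM in *Pax4* βiKO islets, or -0.87 ± 0.10 on the log2 scale (edgeR adjusted p 0.0416), with 31 genes above and 31 below 0. *Rims3* was thus called lower in both genotype comparisons, which no member was. On SCD and in the interaction 0 of the 60 were called (0% and 0.131% of all genes). HFD against SCD called 1 lower in wildtype islets, *Stxbp5l* (0.371% of all genes), and 3 higher and 8 lower (18.3%, against 15.7% of all genes) in *Pax4* R192H islets.

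Some libraries stood apart. On the first principal component of deviations from group means over all tested genes of the first table, which held 30.02% of that variance, wildtype SCD replicate 2 scored 56.5, *Pax4* R192H SCD replicate 3 scored 52.8 and wildtype HFD replicate 1 scored 55.0, and the other 9 ran from -53.4 to 17.4. At the other end, wildtype SCD replicate 1 scored -53.4, and with it left out 0 members were called between genotypes on SCD (0% of all genes) and 1 for diet in wildtype islets (0.613%). *Pax4* R192H SCD replicate 3 and wildtype HFD replicate 1 each had the highest value of their group for 29 of 50 members (58.0%), against 43.1% and 39.7% of all tested genes. Wildtype SCD replicate 2 did for 20 of 50 (40.0%, against 38.5%). *Pclo* had 128, 156 and 144 CPM in the 3 libraries and between 30.6 and 61.9 CPM in the other 9. *Bsn* had 11.7, 13.2 and 18.6 CPM in them and at most 7.51 CPM in the others. The HFD-fed *Pax4* R192H group held no such library. Over all tested genes, deviations from the group mean had Spearman correlations with exonic length of 0.161, 0.114 and 0.203 in the 3 libraries. In the other 9 these ran from -0.211 (wildtype SCD replicate 1) to 0.0865. *Pclo* and *Bsn* are long, with 22457 and 15938 bases of exon, and the part of length was not tested. Without the 3, *Rab3d* and *Ptprn* were called higher and *Sytl4* lower in *Pax4* R192H islets on HFD (2.31% of all genes were called), 27 members were above 0 and 23 below, and the median log2 fold change was 0.03. In the second table *Pax4* βiKO replicate 1 held the highest value of its group for 62.7% of members (33.2% of all genes) and replicate 3 for 17.6% (36.9%).

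**Figure D5:**
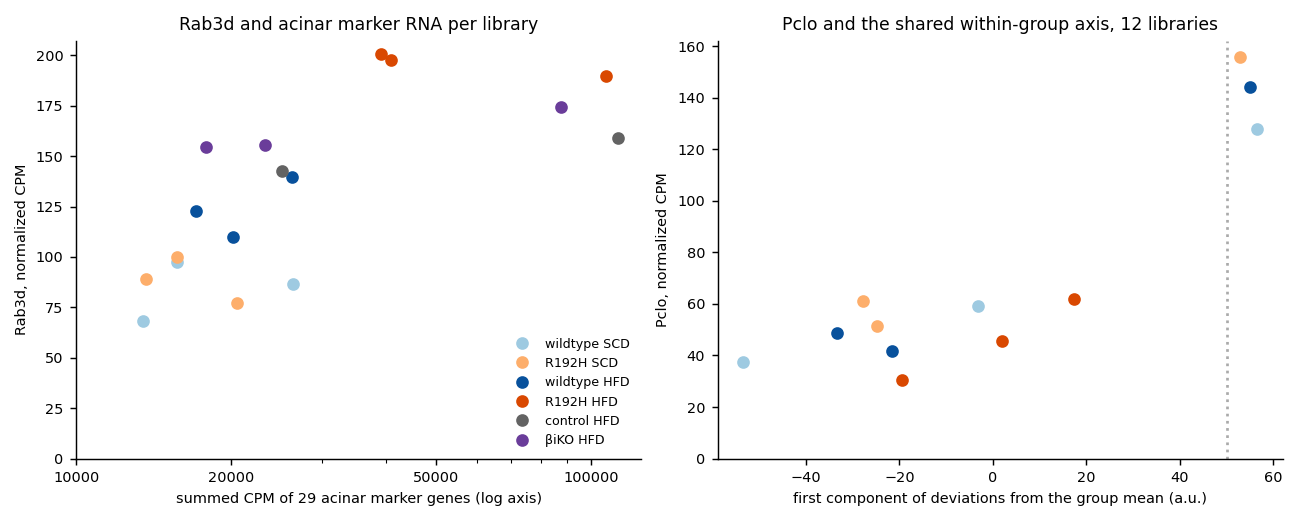
Left, *Rab3d* in CPM (linear axis) against the summed CPM of 29 acinar markers (log axis), 1 point a library of either table, which were normalized separately. Right, *Pclo* in CPM against the score on the first principal component of within-group deviations for the 12 libraries of the first table, with a dotted line at 50. The 3 libraries beyond it hold 128 to 156 CPM of *Pclo*.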

How the data were processed

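The 17 islet RNA-seq libraries were grouped by their titles. The authors made them from total RNA (TRIzol, TruSeq Stranded Total RNA), used STAR v2.7.1 on mm10 and RSEM v1.3.3, and deposited expected counts that tximport had summed over each gene's transcripts. They are not scaled for depth, and the annotation version was not given in the sources used here. Identifiers were paired with symbols from GENCODE M21 (GRCm38) and a gene name table, and exonic lengths came from GENCODE M21. Promoter sequences came from RefSeq.

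Expected counts were rounded and tested in R v4.3.3 with edgeR v4.0.16, by the quasi-likelihood F-test after TMM normalization and filterByExpr (minimum count 10), with 1 coefficient per group in each table and Benjamini-Hochberg adjustment over all tested genes. Calls needed an adjusted p under 0.05 together with a log2 fold change beyond 0.5 in either direction. The SE is the absolute log2 fold change over the root of F. CPM used TMM library sizes, and log2 CPM a prior count of 2. Columns of identical values were looked for and 0 pairs were found. Floors of 3 counts cover counting error only. The tests were run on simulated data too.

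Members, role groups, the list of other genes and marker lists were chosen with earlier results of these data known. Named were all members called in any comparison, the 3 of lowest p in each direction of each comparison, and the member of highest level per kb in each role group. Values in every library are given for 12 members of lowest p in the genotype comparisons on HFD. A few others are named after their values were seen. Alternatives were RLE size factors, other filters, a replicate block, an acinar covariate, DESeq2 v1.42.0, models of only the groups compared and leaving out each library. Leaving out 3 libraries of the first table together, or 1 of 3 libraries for counts by unadjusted p and overlap, or the 2 unnamed identifiers was added after seeing the data.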

Additional observations from a re-analysis of the deposited data

How the results depend on the processing

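With no filter on low counts, 5 members were called in *Pax4* R192H against wildtype on HFD (2 higher, 3 lower; 3.21% of all genes), 2 in the interaction (1.78%), 3 for diet in wildtype islets (2.32%) and 4 in *Pax4* βiKO islets (1.8%), all 4 lower. With at least 10 counts in every library, 3 were called in the genotype comparison on HFD (4.61% of all genes) and 2 for diet in wildtype islets (0.829%), and with DESeq2 4 (5.19%) and 3 (3.05%), and 3 in *Pax4* βiKO islets (1.22%). With the 3 libraries wildtype SCD replicate 2, *Pax4* R192H SCD replicate 3 and wildtype HFD replicate 1 left out, 3 were called on HFD between genotypes (2.31%). With the acinar mean as a covariate the counts were 0 between genotypes on HFD (0% of all genes) and 0 for diet in *Pax4* R192H islets (0.298%), and with only the groups compared in the model 0 for diet in wildtype islets (0.00568%). Leaving out the pair of unnamed identifiers with the most counts, an alternative chosen after seeing the data, gave 2 calls for diet in wildtype islets (0.387%), *Syt5* and *Ptprn* (edgeR adjusted p 0.0493), and 10 in *Pax4* R192H islets (15.6%), where *Syt13* lay just under the fold threshold. Leaving out each library in turn gave 0 to 2 calls between genotypes on HFD (0.458 to 2.45% of all genes; 2 without wildtype replicate 2, 0 without wildtype replicate 3 or any *Pax4* R192H library), 0 to 1 for diet in wildtype islets (0.0246 to 0.62%; 0 without SCD replicate 2, HFD replicate 2 or HFD replicate 3), 7 to 9 for diet in *Pax4* R192H islets (8.38 to 11.2%; 7 without SCD replicate 3, HFD replicate 1 or HFD replicate 2), and 0 in the other comparisons. *Rab3d* kept its direction on HFD, with log2 fold changes of 0.58 to 0.75 and edgeR adjusted p-values of 0.0367 to 0.141. *Sntb2* on SCD turned from -0.09 to 0.054 without the 3 libraries and to 0.053 without wildtype replicate 2, and over libraries left out in turn it ran from -0.25 to 0.053. The causes were not tested.

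The replicate number as a block gave 0 calls between genotypes on HFD (0.768% of all genes), where *Rab3d* then had an edgeR adjusted p of 0.0928, 0 for diet in wildtype islets (0.115%) and 8 in *Pax4* R192H islets (12.3%), where *Rab3a*, *Sntb2* and *Erc2* were lost. Deviations of libraries of the same number had correlations of 0.193, 0.113 and -0.0526 between genotypes on HFD. On SCD these were 0.174, -0.26 and -0.118. Pairing is not given in the labels, and with so few libraries a group these values cannot decide whether any exists. Members of few counts, such as *Rims1*, *Doc2b* and *Cplx1*, are limited by depth.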
